A study of Mus musculus with 2 samples.

Results

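Transcripts of 10 enzymes and partner proteins of eicosanoid synthesis were followed through the myeloid cells of mouse cochleae: Alox5, Alox5ap, Lta4h, Ltc4s, Ptgs1, Ptgs2, Ptges, Ptgds, Hpgds and Pla2g7. They were taken by symbol from 48709 genes. Each symbol had 1 row, and all 10 had UMIs (unique molecular identifiers, each standing for 1 captured transcript) in both libraries. The cells came from cochleae of C57BL/6J mice with the reporters CX3CR1+/GFP and Thy1+/YFP, males and females pooled, after selection for CD11b, a surface protein of myeloid cells. One library was made from cochleae with an electrode, 33 days after implantation per the series text, and the other from non-implanted cochleae. The sample labels name the same cells, but their extraction protocol describes another tissue of the inner ear at other ages and differs in this from the series text, which is followed here. The labels do not say whether the electrode released a drug, how many animals were pooled, or that the non-implanted cochleae were the opposite ears. With 1 library in each group there was no replicate check, and no test was made.

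Eicosanoids are short-lived signalling lipids made from arachidonic acid. On the leukotriene side, 5-lipoxygenase (Alox5) works with its membrane partner FLAP (Alox5ap) to make leukotriene A4, which Lta4h turns into leukotriene B4, an attractant of neutrophils, and Ltc4s into leukotriene C4, the first of the cysteinyl leukotrienes. On the prostanoid side, the cyclooxygenases Ptgs1 and Ptgs2 make prostaglandin H2, from which Ptges makes prostaglandin E2 and Ptgds and Hpgds make prostaglandin D2. Pla2g7 encodes a secreted enzyme that inactivates platelet-activating factor and oxidised phospholipids. An enzyme pair can be split between cells, because leukotriene A4 and other intermediates can pass from one cell to another.

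After filtering, 3065 implanted and 3411 non-implanted cells remained, with a median of 4239 and 4145 UMIs. The libraries shared 6 cell barcodes. Clusters were named from marker genes, with "-like" because the names rest on transcripts alone, and the members and their pathway genes took no part in the clustering. The classes compared were granulocyte precursor-like (1025 implanted and 1168 non-implanted cells), neutrophil-like (1264 and 1591), monocyte-like (271 and 228) and macrophage-like cells (291 and 247). Ptprc, the pan-leukocyte marker CD45, was found in 90.0% and 93.1% of cells. Itgam, which encodes CD11b, is listed under 2 rows: the main gene row held 0 UMIs in both libraries and the other 130 and 163 UMIs, so the selection marker could not be checked by its own transcript. Itgb2, which encodes the partner chain of CD11b, was found in 66.2% and 67.9% of cells.

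Levels are given as UMIs of the gene in 1000000 UMIs of the class (CPM), the implanted library first, and intervals are exact 95% intervals that cover counting error only. The 3'-end counts are not scaled to transcript length, so levels are compared between classes and libraries and not between genes. In sums over a class, fewer expressing cells and less RNA in each cannot be told apart.

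Each of the 4 classes except the monocytes was the highest in both libraries for some of the enzymes. Granulocyte precursor-like cells were highest for 3 of 10 (Lta4h, Ptgs1 and Ptges), against 11.8% of all 11807 genes measured. Neutrophil-like cells were highest for 4 (Alox5, Alox5ap, Ptgs2 and Pla2g7), against 11.3%. Macrophage-like cells were highest for 3 (Ltc4s, Ptgds and Hpgds), against 19.3%. Monocyte-like cells were highest for 0 of 10, against 31.7% of all genes.

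**Figure D1:**
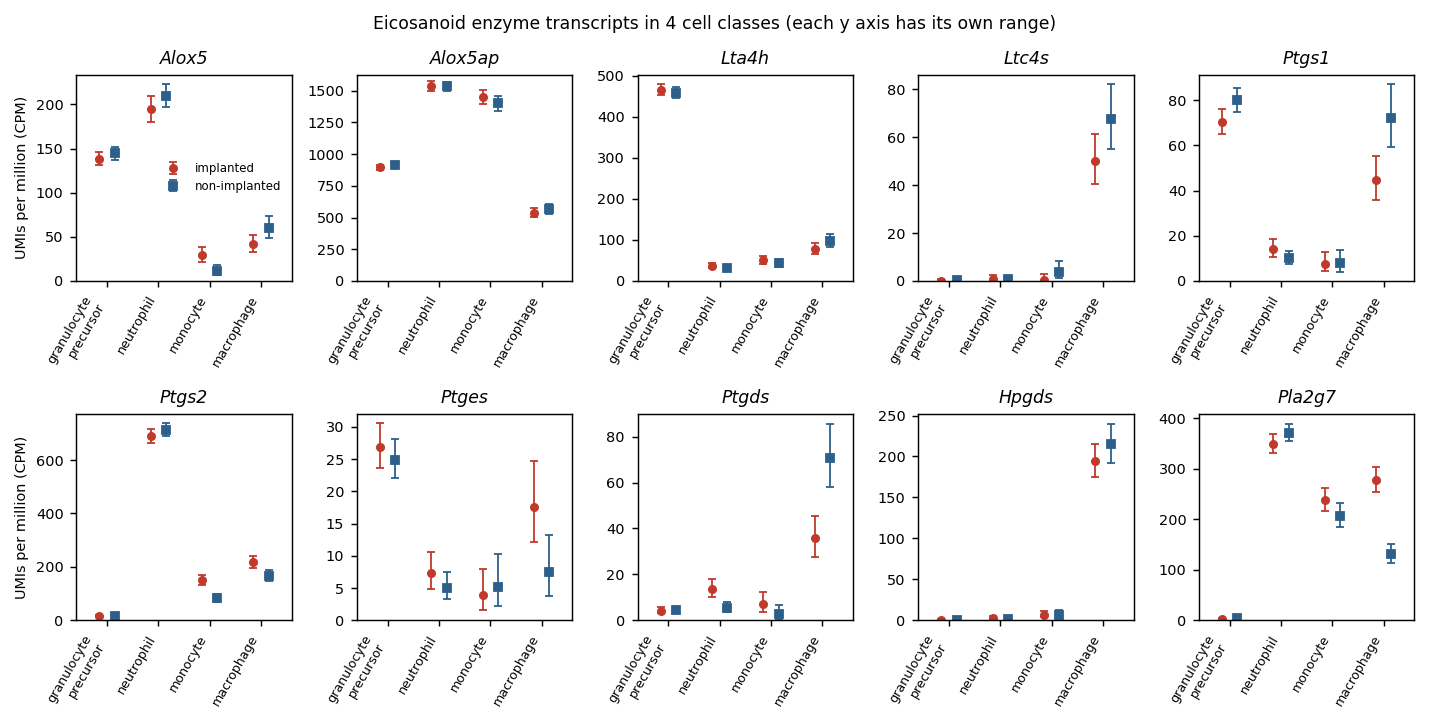
CPM (y axis, own range in each panel) of the 10 transcripts in 4 cell classes (x axis), for the implanted (circles) and non-implanted (squares) library. Bars are exact 95% counting intervals. Lta4h stands high in granulocyte precursor-like cells alone (466 and 459), Ptgs2 in neutrophil-like cells (691 and 713), and Ltc4s and Hpgds in macrophage-like cells.

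Alox5 (chr6:116410077-116461178, minus strand, GRCm38 as are all gene positions given here) was highest in neutrophil-like cells, at 195 and 210 CPM. Granulocyte precursor-like cells held 139 and 144 CPM, macrophage-like cells 42.1 and 60.02, and monocyte-like cells 29.1 and 11.7. The intervals of the neutrophil-like and precursor-like levels did not overlap in either library. The neutrophil lineage, meaning both of these classes, thus held 89.1% and 92.9% of all Alox5 UMIs while holding 68.7% and 76.0% of all UMIs. Erythroid-like cells, which serve here as a rough gauge of free RNA, held 2.52 and 7.63 CPM of Alox5. Whether these cells make any of the enzymes themselves was not tested.

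Alox5ap (chr5:149264767-149288153, plus strand) was spread over all 4 classes. It stood at 1534 and 1536 CPM in neutrophil-like cells and at 1452 and 1401 CPM in monocyte-like cells. Granulocyte precursor-like cells held 898 and 912 CPM and macrophage-like cells 538 and 564. Erythroid-like cells held 56.6 and 19.1 CPM. The monocyte-like cells thus carried the 5-lipoxygenase partner at 0.947 (95% interval 0.903 to 0.991) and 0.912 (0.869 to 0.957) times the neutrophil-like level, but Alox5 itself at 0.150 (0.111 to 0.198) and 0.0558 (0.0330 to 0.0887) times. At the level of single cells, Alox5ap was found in 95.9% and 95.6% of monocyte-like cells (median depth 6696 and 6650 UMIs), against 10.4% and 9.76% of erythroid-like cells (7815 and 10666). Thinned to 1000 UMIs per cell, which left out 5 and 2 shallower monocyte-like and 4 and 1 erythroid-like cells, the shares were 75.2% and 73.0% against 1.37% and 2.50%.

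Lta4h (chr10:93453411-93484875, plus strand) was a transcript of the granulocyte precursors. It stood at 466 and 459 CPM there, against 37.0 and 30.5 in neutrophil-like, 50.0 and 42.9 in monocyte-like and 77.8 and 97.8 in macrophage-like cells. The precursor-like level was 12.6-fold (95% interval 10.6 to 15.1) and 15.0-fold (12.7 to 17.9) the neutrophil-like level. With coarser clustering (resolution 0.5) the neutrophil-like class took in more Lta4h, at 137 and 93.2 CPM, and stayed below the precursor-like class. Lta4h was found in 85.8% and 85.7% of precursor-like cells (median depth 7197 and 7480 UMIs), against 12.99% and 21.95% of erythroid-like cells. Erythroid-like cells held 55.4 and 32.4 CPM of Lta4h, not below the neutrophil-like level. Whether that was free RNA or their own was not tested. Cells with both Alox5 and Lta4h, the pair that leads to leukotriene B4, were thus common among precursors and rare among neutrophils. Of the precursor-like cells with Alox5, 88.6% and 89.3% also had Lta4h, against 80.6% and 78.4% of those without Alox5. The precursor-like cells with Alox5 were deeper (median 7908 and 8214 UMIs against 5975 and 6323), and the part of depth was not tested. Of the neutrophil-like cells with Alox5, 10.95% and 7.73% had Lta4h, against 5.71% and 4.94% of those without Alox5. The neutrophil-like cells were shallower (median 2736 and 2755 UMIs), which lowers such shares. Thinned to 1000 UMIs, which left out 11 and 9 precursor-like and 25 and 15 neutrophil-like cells, Lta4h was found in 36.7% and 31.2% of precursor-like and in 2.58% and 2.35% of neutrophil-like cells.

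Ltc4s (chr11:50236461-50238616, minus strand) was nearly confined to macrophage-like cells among the 4 classes. These held 94 of 120 and 100 of 121 of its UMIs, at 50.1 (95% interval 40.5 to 61.3) and 67.4 (54.9 to 82.0) CPM. Neutrophil-like cells had 3 UMIs in each library, precursor-like cells 1 and 4, and monocyte-like cells 1 and 6. Outside these classes, osteoclast-like cells (12 and 28 cells) held 14 and 7 UMIs of Ltc4s, at 51.7 (28.2 to 86.7) and 12.2 (4.89 to 25.1) CPM. The cells with Ltc4s were thus mostly other cells than those with the highest Alox5. Of macrophage-like cells with Ltc4s, 32.6% and 43.9% also had Alox5, against 13.1% and 14.6% of those without. The cells with Ltc4s were deeper, with a median of 6346 and 6874 UMIs against 4224 and 4690. Macrophage-like cells also carried RNA of the 12 neutrophil markers, at 40512 and 60213 CPM. The part of depth and of that RNA was not tested.

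Ptgs1 (chr2:36230426-36252272, plus strand), the constitutive cyclooxygenase, was highest among the 4 classes in precursor-like cells, at 70.5 and 80.0 CPM. Macrophage-like cells held 44.8 (35.7 to 55.4) and 72.2 (59.1 to 87.2) CPM, so that in the non-implanted library the intervals of the 2 classes overlapped and their order is not resolved. Neutrophil-like cells held 14.3 and 10.2 CPM and monocyte-like cells 7.70 and 7.80. Platelets are a classic source of Ptgs1 products, and the few megakaryocyte or platelet-like cells held 218 CPM in the implanted library (7 cells, 44 UMIs, of which 34 came from 1 cell) and 25.1 CPM in the non-implanted library (10 cells, 2 UMIs). The 11 megakaryocyte or platelet markers, all detected, summed to 50328 and 17576 CPM in these cells and the neutrophil markers to 1482 and 111216 CPM, so the cells of the 2 libraries are not alike.

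Ptgs2 (chr1:150100031-150108227, plus strand), the inducible cyclooxygenase, was highest in neutrophil-like cells, at 691 (664 to 718) and 713 (689 to 737) CPM. Precursor-like cells held 16.4 and 16.5 CPM, so that the neutrophil-like level was 42.2-fold (35.7 to 50.2) and 43.3-fold (37.2 to 50.6) higher. Macrophage-like cells held 217 and 167 CPM and monocyte-like cells 150 and 81.9. The 2 cyclooxygenases thus had opposite places in the neutrophil lineage. Ptgs2 was found in 58.0% and 58.5% of neutrophil-like cells, against 3.90% and 2.44% of the deeper erythroid-like cells.

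Of the synthases downstream of the cyclooxygenases, the members Ptges, Ptgds and Hpgds were not highest in neutrophil-like cells, the class with the most Ptgs2. Ptges (chr2:30889471-30929863, minus strand), the inducible prostaglandin E synthase, was sparse: 327 and 326 UMIs in each whole library. It was highest in precursor-like cells, at 26.9 (23.7 to 30.6) and 24.9 (22.01 to 28.1) CPM, against 7.28 and 5.08 in neutrophil-like and 3.85 and 5.20 in monocyte-like cells. Macrophage-like cells held 17.6 (12.1 to 24.7) and 7.42 (3.70 to 13.3) CPM. Of neutrophil-like cells with Ptgs2, 0.955% and 1.29% also had Ptges, against 2.64% and 1.82% of those without. These shares rest on 21 and 24 neutrophil-like cells with Ptges. The cells with Ptgs2 were shallower (median 2621 and 2676 UMIs against 2922 and 2881), and the part of depth was not tested.

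Hpgds (chr6:65117293-65144908, minus strand), the hematopoietic prostaglandin D synthase, was a macrophage transcript among the 4 classes. Macrophage-like cells held 194 (175 to 215) and 215 (192 to 240) CPM and 364 of 407 and 319 of 362 UMIs. Monocyte-like cells held 6.60 and 6.502 CPM, neutrophil-like cells 3.24 and 1.48, and precursor-like cells 0.668 and 0.740. The macrophage-like level was 29.4-fold (16.6 to 57.4) and 33.1-fold (17.8 to 69.7) the monocyte-like level. It was found in 38.1% and 41.7% of macrophage-like cells, against 0.949% and 0.440% of neutrophil-like cells, and in 16.5% and 20.5% against 0.242% and 0.0635% after thinning to 1000 UMIs (55 and 37 macrophage-like cells left out). Hpgds and Ltc4s met in the same cells: of the macrophage-like cells with Ltc4s, 69.6% and 68.3% had Hpgds, against 32.2% and 36.4% of those without. The cells with Ltc4s were deeper (median 6346 and 6874 UMIs against 4224 and 4690), and the part of depth was not tested.

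Ptgds (chr2:25466709-25470046, minus strand), the lipocalin-type prostaglandin D synthase, is known as an abundant transcript of non-immune cells, such as those of the meninges. The implanted library held 7352 UMIs of it and the non-implanted library 269. In the implanted library 1 cell held 5717 of them, or 77.8%, and a second cell 1283, so that 352 UMIs lay in all the other cells. The first cell had no UMI of Ptprc and held 281 of Dct, a gene of melanocytes, and 284 of Apod. It fell in a cluster of fibroblast or fibrocyte-like cells (13 implanted and 8 non-implanted) whose leading genes were Ptgds, Apod and Dct. The second fell among the megakaryocyte or platelet-like cells, with 145257 UMIs in all and 7509 of Pf4. The implanted total of Ptgds therefore describes mainly 2 cells. In the non-implanted library the 2 highest cells held 59 and 47 of 269 UMIs, and 163 lay in other cells. Among the 4 classes it was highest in macrophage-like cells, at 35.7 (27.7 to 45.3) and 70.8 (57.9 to 85.7) CPM, of whose 105 non-implanted UMIs 47 came from 1 cell.

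**Figure D2:**
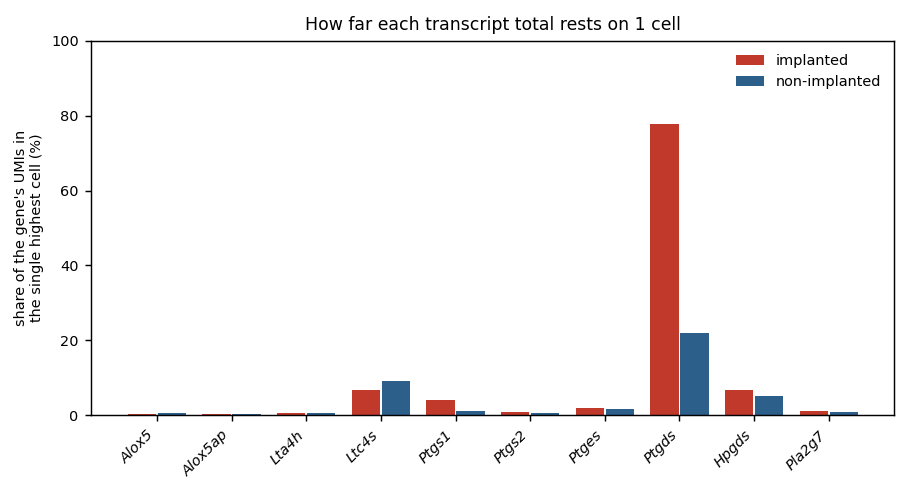
Share (%) of each gene's UMIs in a library that lies in its single highest cell (y axis), for the 10 transcripts (x axis) in the implanted and non-implanted libraries. Ptgds stands apart, with 77.8% of its implanted and 21.9% of its non-implanted UMIs in 1 cell, while no other gene passes 9.09%.

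Pla2g7 (chr17:43568098-43612201, plus strand) was shared by all mature classes and nearly missing from precursors. It stood at 349 and 372 CPM in neutrophil-like, 238 and 207 in monocyte-like and 278 and 131 in macrophage-like cells, against 2.67 and 4.44 in precursor-like cells. In the implanted library the macrophage-like level stood above the monocyte-like level, in the non-implanted library below it. Without cluster 19, a macrophage-like cluster almost all from the implanted library, the implanted macrophage-like level was 134 CPM and also lay below. Osteoclast-like cells held 277 (218 to 347) and 193 (159 to 232) CPM. The neutrophil-like level was 131-fold (87.5 to 205) and 83.7-fold (62.9 to 114) the precursor-like level.

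Set directly against each other, precursor-like and neutrophil-like cells differed at least 1.5-fold (on CPM with 5 added) in both libraries for 6 of the 8 members measured there. Lta4h, Ptgs1 and Ptges were higher in precursors, which is 3 of 8 against 29.8% of all genes. Alox5ap, Ptgs2 and Pla2g7 were lower, also 3 of 8, against 17.7%. Alox5 did not pass that fold, and Ltc4s and Hpgds had fewer than 20 UMIs in 1 or both libraries and were not measured there. The precursor-like cells were also deeper (median 7197 against 2736 UMIs in the implanted library), and CPM divides by depth.

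Lta4h, Ptgs2 and Pla2g7 changed stepwise along the lineage when clusters were ordered by their precursor and neutrophil markers alone. Lta4h stood between 421 and 534 CPM in all 5 precursor-like clusters of both libraries. It stood at 110 and 100 CPM in cluster 7, and between 9.75 and 39.5 CPM in the other 5 neutrophil-like clusters. Cluster 7 was thus the point of change. Ptgs2 stood at 31.3 CPM or less before it, at 261 and 422 CPM in it, and between 361 and 1345 CPM after it. These later levels did not follow the order of the clusters, with 1345 and 729 CPM in cluster 16 and 366 and 361 in cluster 2. Pla2g7 stood at 7.60 CPM or less before cluster 7, at 58.1 and 107 CPM in it, and between 238 and 597 CPM after it. Ptgs1 was highest in cluster 13, the cluster led by Elane, Prtn3 and Mpo, genes of the primary granules, at 99.9 and 137 CPM. Alox5 had no such step and no steady climb. It stood at 85.3 and 100.1 CPM in cluster 13, 174 and 173 in precursor-like cluster 1, and 174 and 174 in cluster 7. In later clusters it stood at 254 and 247 CPM (cluster 2) and at 133 and 158 CPM (cluster 6). Alox5ap stood between 726 and 1768 CPM in all 11 clusters.

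**Figure D3:**
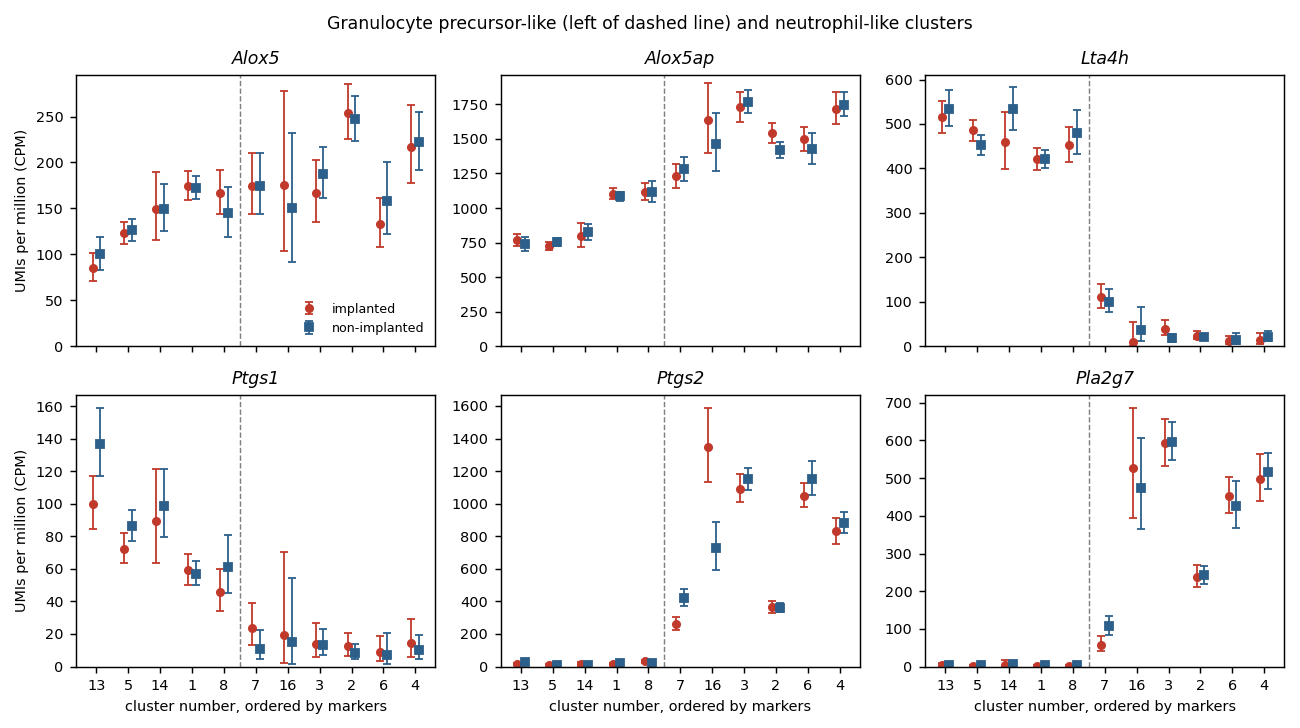
CPM (y axis) of 6 transcripts in the 5 granulocyte precursor-like clusters (left of the dashed line) and the 6 neutrophil-like clusters, ordered on the x axis by their markers, for the implanted (circles) and non-implanted (squares) libraries with exact 95% counting intervals. Lta4h drops and Pla2g7 climbs at cluster 7, where they stand at 110 and 100 CPM and at 58.1 and 107 CPM.

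Start regions are shown for some members with opposite places in the lineage. Lta4h and Ptgs1 were higher in precursor-like cells, and Ptgs2 and Pla2g7 in neutrophil-like cells. Windows run from 250 bases before to 50 after the start of the gene, in RefSeq's annotation of GRCm38.p6, 5′ to 3′ on the gene's strand. RefSeq held such a window for 9 of the 10 members, and none was at hand for Alox5ap. Capitals mark matches on either strand to 6 motifs. These were the TATA box as TATAAA, a site of the C/EBP family of myeloid factors as TTGCGCAA, and the core of the cyclic AMP response element as ACGTCA. The others were the E-box as CACGTG, the core of sites of PU.1, a factor of all myeloid cells, as GAGGAA, and a site of the NF-kappa B type as GGGNNTTCC.
Lta4h, chr10:93453146-93453445, plus strand: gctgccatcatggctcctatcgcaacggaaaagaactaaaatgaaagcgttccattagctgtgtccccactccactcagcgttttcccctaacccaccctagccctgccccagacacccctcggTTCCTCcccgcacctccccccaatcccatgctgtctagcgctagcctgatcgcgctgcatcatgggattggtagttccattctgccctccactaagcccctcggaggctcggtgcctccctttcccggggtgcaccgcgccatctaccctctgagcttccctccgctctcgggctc
Ptgs1, chr2:36230176-36230475, plus strand: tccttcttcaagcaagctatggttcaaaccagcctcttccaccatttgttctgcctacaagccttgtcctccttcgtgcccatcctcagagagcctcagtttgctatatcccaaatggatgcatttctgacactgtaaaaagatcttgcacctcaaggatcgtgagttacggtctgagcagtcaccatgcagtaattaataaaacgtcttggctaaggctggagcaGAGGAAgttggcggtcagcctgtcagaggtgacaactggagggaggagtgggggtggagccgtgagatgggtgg
Ptgs2, chr1:150099781-150100080, plus strand: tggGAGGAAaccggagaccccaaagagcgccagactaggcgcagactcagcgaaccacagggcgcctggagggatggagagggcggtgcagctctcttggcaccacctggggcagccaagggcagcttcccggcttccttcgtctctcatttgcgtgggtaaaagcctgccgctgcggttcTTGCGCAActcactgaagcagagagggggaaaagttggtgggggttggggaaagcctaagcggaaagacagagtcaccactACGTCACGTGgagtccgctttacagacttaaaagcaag
Pla2g7, chr17:43568201-43568500, plus strand: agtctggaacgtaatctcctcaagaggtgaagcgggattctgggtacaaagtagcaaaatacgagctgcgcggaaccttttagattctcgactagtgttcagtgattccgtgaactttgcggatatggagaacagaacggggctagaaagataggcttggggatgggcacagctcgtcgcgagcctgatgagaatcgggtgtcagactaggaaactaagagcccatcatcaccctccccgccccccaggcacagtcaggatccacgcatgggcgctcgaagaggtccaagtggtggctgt

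The Ptgs2 window held 4 of the 6 motifs. TTGCGCAA began 69 bases before the start, and is present in 0.183% of 32851 promoters of the same length. The core ACGTCA (7.51% of promoters) and the E-box CACGTG (7.15%) overlapped and lay after the annotated start, from positions 13 and 17. GAGGAA, found in 28.3% of promoters, was present in the windows of Ptgs2, Lta4h and Ptgs1 and also of Alox5, Ltc4s, Ptges and Hpgds. The Pla2g7 window held none of the motifs, and GENCODE places the start of that gene further upstream than RefSeq does. Matches describe letters only, and no binding was measured. The TATA box (13.6% of promoters) and the NF-kappa B type (5.82%) had no match in the 9 windows.

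Macrophage-like cells consisted of 4 clusters that differed in these enzymes. Cluster 9 (113 implanted and 153 non-implanted cells) was led by antigen presentation genes and C1qa. Cluster 12 (101 and 81) was shallow, with a median of 1057 and 1107 UMIs, and its 12 neutrophil markers summed to 149561 and 145037 CPM, against 31940 and 48502 in cluster 9. Cluster 19 (64 and 3), led by Mmp12, Mfge8, Spp1 and Gpnmb, was almost all from the implanted library. Cluster 22 (13 and 10) was led by C1qa, C1qc and C1qb.

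The prostaglandin D and leukotriene C4 synthases were most frequent in cluster 22. Hpgds stood there at 529 (399 to 689) and 331 (230 to 463) CPM, against 280 and 231 in cluster 9 and 58.7 in cluster 19 of the implanted library. Ltc4s stood at 260 and 234 CPM in cluster 22, against 54.9 and 49.0 in cluster 9. It stood at 15.8 CPM in implanted cluster 19. Ptgs1 stood at 202 and 253 CPM in cluster 22, against 43.7 and 51.5 in cluster 9, so that a cyclooxygenase and both synthases were highest in the same small cluster. Its 13 implanted and 10 non-implanted cells are few, and differed in the summed 15 macrophage markers (64442 and 14785 CPM) and the neutrophil markers (11378 and 43955 CPM).

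Pla2g7 and Ptges were highest in cluster 19. In the implanted library Pla2g7 stood at 521 (469 to 578) CPM in cluster 19, against 140 in cluster 9 and 57.7 in cluster 22. Ptges stood at 35.8 (23.2 to 52.9) CPM in cluster 19, against 8.97 in cluster 9. Of the 33 UMIs of Ptges in implanted macrophage-like cells, 25 came from cluster 19. Alox5 and Ptgs2 were highest in cluster 12 (131 and 165, and 371 and 523 CPM), the cluster with the most neutrophil marker RNA. The part of that RNA in these values was not tested.

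**Figure D4:**
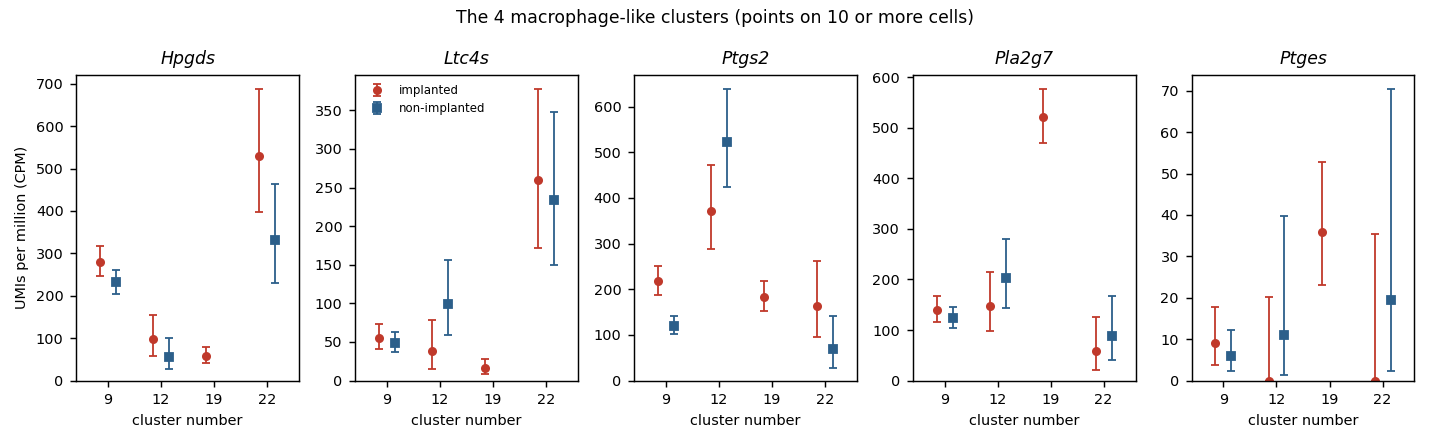
CPM (y axis) of Hpgds, Ltc4s, Ptgs2, Pla2g7 and Ptges in the 4 macrophage-like clusters (x axis), with exact 95% counting intervals, for the implanted (circles) and non-implanted (squares) libraries. Non-implanted cluster 19 is not drawn because it has 3 cells. Hpgds and Ltc4s are highest in cluster 22 and Pla2g7 and Ptges in cluster 19 (521 and 35.8 CPM).

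Between the libraries, 1 member passed the fold in the 2 classes of the neutrophil lineage. In granulocyte precursor-like cells 0 of the 8 members with at least 20 UMIs were at least 1.5-fold higher in the implanted library, against 0.794% of all genes, and 0 were lower, against 0.150%. Lta4h stood at 1.016 (0.975 to 1.06) and Alox5 at 0.960 (0.890 to 1.03) times its non-implanted level. In neutrophil-like cells 1 of 8, Ptgds, was higher, against 1.54%, and 0 were lower, against 0.640%. Its 50 and 26 UMIs gave a ratio of 2.45 (1.497 to 4.10), and 14 of the 50 came from 1 cell without which the fold was not reached. Ptgs2 stood at 0.969 (0.920 to 1.021), Alox5ap at 0.998 (0.964 to 1.03) and Pla2g7 at 0.940 (0.874 to 1.01) times the non-implanted level. Within single clusters of the lineage, 5 of 63 ratios were at least 1.5-fold from 1 with an interval that left out 1, and these are named after their values were seen. The share over all genes was not taken for single clusters, so whether 5 of 63 is unusual is not known. Ptgs2 differed in opposite directions. In cluster 7 its ratio was 0.617 (0.506 to 0.752), at 261 against 422 CPM. In cluster 16, led by the interferon-induced genes Oasl1, Ifit1 and Rsad2, it was 1.84 (1.41 to 2.42), at 1345 against 729 CPM. In cluster 13 it was 0.499 (0.276 to 0.882), from 21 against 35 UMIs. Pla2g7 stood at 0.544 (0.355 to 0.824) in cluster 7, from 37 against 68 UMIs, and Lta4h at 2.25 (1.15 to 4.48) in cluster 3, from 23 against 17 UMIs.

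In monocyte-like cells 2 of 7 measured members were higher in the implanted library, Alox5 and Ptgs2, against 3.25% of all genes, and 0 were lower, against 3.09%. Alox5 had 53 UMIs in 271 cells against 18 in 228, a ratio of 2.49 (1.44 to 4.52). Ptgs2 had 272 against 126 UMIs, at 150 and 81.9 CPM, a ratio of 1.83 (1.47 to 2.27). Both ratios pointed the same way in the 2 monocyte-like clusters. For Alox5 they were 2.94 (1.08 to 9.98) in cluster 10 and 2.54 (1.30 to 5.27) in cluster 11. For Ptgs2 they were 1.63 (1.29 to 2.07) and 1.41 (0.785 to 2.56), the latter with an interval that includes no difference. Alox5 and Ptgs2 are also neutrophil transcripts, and the 12 neutrophil markers, all detected, summed to 7361 CPM in implanted and 5670 CPM in non-implanted monocyte-like cells, against 246498 and 255856 in neutrophil-like cells. The 9 erythroid markers differed more, at 1758 CPM (0 markers at 0) in implanted and 83.2 CPM (3 at 0) in non-implanted monocyte-like cells. The part of either list in the differences was not tested. With coarser clustering (resolution 0.5) the monocyte-like class held Alox5 at 49.3 and 45.1 CPM, so that this difference rests on which cells the class takes in. In the same cells Alox5ap stood at 1.04 (0.979 to 1.10) and Pla2g7 at 1.15 (0.991 to 1.33) times the non-implanted level.

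In macrophage-like cells 2 of 10 members were higher in the implanted library, against 8.37% of all genes, and 2 were lower, against 8.19%. Pla2g7 was higher, at 278 against 131 CPM (2.11, 1.79 to 2.51), and Ptges at 33 against 11 UMIs (2.37, 1.17 to 5.20). Ptgs1 was lower, at 44.8 against 72.2 CPM (0.620, 0.460 to 0.833), and Ptgds at 35.7 against 70.8 (0.504, 0.365 to 0.691). None of the 4 passed the fold without cluster 19. In this alternative, added after seeing the data, 0 members were higher and 0 lower: Pla2g7 stood at 1.03 (0.825 to 1.27), Ptges at 0.906 (0.316 to 2.47), Ptgs1 at 0.792 (0.575 to 1.08) and Ptgds at 0.712 (0.510 to 0.987). Hpgds then stood at 1.27 (1.08 to 1.48) times its non-implanted level. Pla2g7 also fell below the fold when each cell had equal weight (log2 ratio 0.12) or each library was clustered separately (0.27). The difference in Ptgds also rested on the single non-implanted cell named above. The 12 neutrophil and 11 precursor markers summed to 40512 and 9821 CPM in implanted and to 60213 and 18804 CPM in non-implanted macrophage-like cells, with all neutrophil markers detected and 1 precursor marker at 0 in the non-implanted cells. The 9 erythroid markers summed to 1791 against 169 CPM (2 at 0 in the non-implanted cells) and the 7 osteoclast markers, all detected, to 692 against 130 CPM. The part of these lists was not tested.

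Within cluster 9, the largest macrophage-like cluster, Ptgs2 was higher in the implanted library, at 218 against 120 CPM and a ratio of 1.81 (1.45 to 2.27), while Pla2g7 stood at 140 against 123. The neutrophil markers in cluster 9 summed to 31940 against 48502 CPM, and their part in this difference was not tested. In cluster 12 Ptgs2 was lower in the implanted library, at 0.710 (0.512 to 0.9797). Hpgds stood at 280 against 231 CPM in cluster 9. Over the whole class Hpgds stood at 0.902 (0.774 to 1.05) and Ltc4s at 0.743 (0.554 to 0.994) times the non-implanted level. Without cluster 19 Ltc4s stood at 1.03 (0.764 to 1.40) times that level, so its lower whole-class level rested on that cluster.

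**Figure D5:**
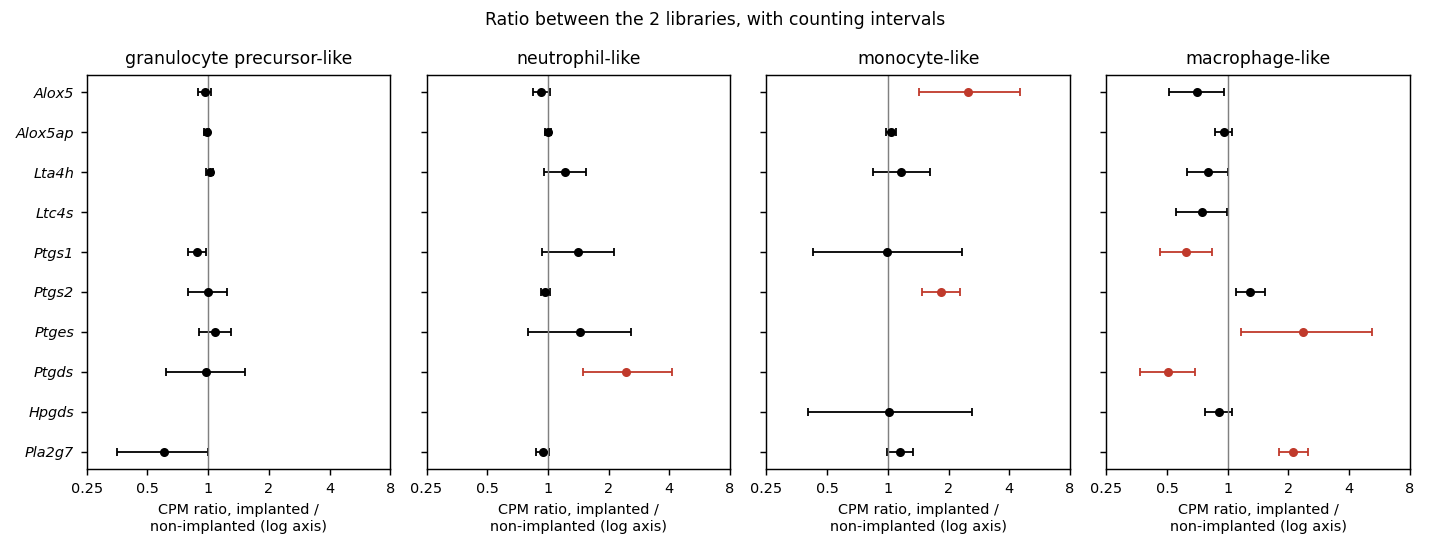
Ratio of CPM, implanted over non-implanted (x axis, log scale), for the 10 transcripts (y axis) in 4 cell classes, with exact 95% counting intervals. Red points differ at least 1.5-fold on CPM with 5 added, and genes with fewer than 20 UMIs are left out. Precursor-like cells have no red point, and Pla2g7 in macrophage-like cells has the narrowest interval of the red ones there (1.79 to 2.51).

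The wider pathway was followed in 62 further genes in 7 lists: arachidonate release, other lipoxygenases, leukotriene processing, prostanoid processing, receptors, platelet-activating factor turnover and epoxide enzymes. Of these, 34 were measured in both libraries. Macrophage-like cells were highest for 11 of them (19.3% of all genes), neutrophil-like cells for 6 (11.3%), precursor-like cells for 5 (11.8%) and monocyte-like cells for 4 (31.7%), the rest changing place between the libraries. The precursor count is near that of all genes. The next examples were chosen after their values were seen. Cyp4f18, a hydroxylase that inactivates leukotriene B4, stood at 467 and 458 CPM in neutrophil-like and 18.4 and 21.8 in precursor-like cells. Ltb4r1, the high-affinity leukotriene B4 receptor, went with Lta4h, at 371 and 382 CPM in precursor-like against 98.7 and 91.7 in neutrophil-like cells. Tbxas1, thromboxane synthase, stood at 476 and 553 CPM in macrophage-like cells and at 83.0 and 81.3 CPM or less in the other 3 classes. Macrophage-like cells thus held transcripts of another branch from prostaglandin H2. Hpgd, which degrades prostaglandins, was nearly absent from the neutrophil lineage (1.48 CPM or less) and stood at 257 and 204 CPM in monocyte-like and 151 and 252 in macrophage-like cells.

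Between the libraries, 0 of 30 measured pathway genes differed at least 1.5-fold in precursor-like cells, where 0.794% of all genes were higher and 0.150% lower. In neutrophil-like cells 1 of 22 was higher (1.54% of all genes): Abcc1, an exporter of leukotriene C4, at 17.5 against 7.20 CPM. In monocyte-like cells 1 of 28 was lower (3.09% of all genes): Ptger2, a prostaglandin E2 receptor, at 7.70 against 18.2 CPM. In macrophage-like cells 4 of 32 were higher (8.37% of all genes) and 5 lower (8.19%), with a median log2 ratio of 0.04 over the 32 and -0.01 over all genes.

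The macrophage differences with the most UMIs lay in both lipid branches. Dpep2, a dipeptidase that turns leukotriene D4 into leukotriene E4, stood at 105 against 16.9 CPM, a ratio of 6.23 (4.09 to 9.86). Cluster 19 held 177 of its 197 implanted UMIs, and without that cluster the ratio was 1.04 (0.544 to 1.96). Hpgd stood at 0.598 (0.510 to 0.700), Cysltr1, a cysteinyl leukotriene receptor, at 0.619 (0.440 to 0.866) and Mgst2, which can also make leukotriene C4, at 0.604 (0.417 to 0.869). Without cluster 19 these were 0.893 (0.760 to 1.05), 0.766 (0.529 to 1.10) and 0.658 (0.432 to 0.987). Ggt5, which turns leukotriene C4 into D4, stood at 0.346 (0.213 to 0.547), and Pla2g2d, a secreted phospholipase A2, at 0.185 (0.0980 to 0.329). Both remained below 0.5 without cluster 19, at 0.487 (0.294 to 0.784) and 0.253 (0.128 to 0.464). Among the 4 classes Mgst2 was highest in precursor-like cells (239 and 254 CPM) and Ggt5 in neutrophil-like cells (76.9 and 77.5). Without cluster 19, the precursor markers summed to 10716 CPM in implanted and 18968 CPM in non-implanted macrophage-like cells. The neutrophil markers summed to 48396 and 60123 CPM there. The part of that RNA in these differences was not tested. The other 3 genes higher in the implanted library, named after their values were seen, had few UMIs: Ptgr1 51 against 20, Cbr1 34 against 12 and Pla2g12a 31 against 3.

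Genes of the most similar pattern were sought over 30 points, each a cluster of at least 50 cells in 1 library, by Pearson's r of log2 CPM with 5 added. The points share libraries and lineages, so r is a description. Pla2g7 went most closely with Clec7a (0.98) and Dusp1 (0.97), Ptgs2 with March7 and Clec4d (both 0.97), and Lta4h with Zmpste24 and Lbp (both 0.96). Hpgds went with Ccnd1 and Ms4a7 (both 0.96), Alox5 with Ipcef1 (0.96) and Fam65b (0.95), and Alox5ap with Pstpip1 and Arpc2 (both 0.95). Ptgs1 went with Ffar2 (0.91) and Cebpe (0.90), Ptges with Agtrap (0.86) and Ldhc (0.83), and Ptgds with Ccl12 and Pmepa1 (both 0.84). Among the members themselves, Lta4h went with Ptgs1 (0.84) and against Pla2g7 (-0.90) and Ptgs2 (-0.82), while Ptgs2 went with Pla2g7 (0.88).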

How the data were processed

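The deposited values are UMI counts per gene and cell barcode from 3'-end droplet sequencing, and the file headers name Cell Ranger 3.0.1. The submitters' processing notes name mm10 (GRCm38) and Seurat. No source used here gives the annotation release or the use of strand, so reads of a member and of a gene on the other strand cannot be told apart. Alox5ap, Ltc4s, Ptgs1, Hpgds and Pla2g7 overlap such a gene in GENCODE M21. Ptges overlaps a pseudogene on its own strand.

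The implanted and non-implanted libraries held 3231 and 3572 barcodes and 19593003 and 21577033 UMIs. Barcodes needed at least 200 genes and at most 10% mitochondrial UMIs (82 and 59 left out). Scrublet, in scanpy 1.11.5, removed 84 and 102 doublets. Leiden clustering (leidenalg 0.10.2, 2000 variable genes, 30 components, 15 neighbours, resolution 1, members and pathway genes left out) gave 26 clusters, after 1 mixed cluster was split. Names needed at least 3 detected markers, and the naming score and the split rule were settled after the clusters had been seen. Members, gene lists and rules were chosen with earlier results of these data known. Counts were summed by class and library. Ratios are on CPM, and a member is counted as higher or lower at a fold of 1.5 on CPM with 5 added and at least 20 UMIs over both libraries. Intervals are exact Poisson (CPM), Clopper-Pearson (shares) and conditional binomial (ratios), computed with scipy 1.17.1, and cover counting error only. The calculation was tested on simulated data. Genes named are all 10 members, up to 6 pathway genes past the fold in each class by UMI total, and the 2 genes most alike in pattern to each member with at least 500 UMIs. Alternatives changed the pseudocount, scaling, UMI minimum, fold, cell and doublet filters, clustering, weighting and depth of cells, and left out single cells or clusters.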

Additional observations from a re-analysis of the deposited data

Results flagged for a closer look

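Alox5 went in opposite directions in 2 classes: 2.49 times its non-implanted level in implanted monocyte-like cells (53 against 18 UMIs) and 0.701 times in macrophage-like cells (79 against 89 UMIs, 95% interval 0.511 to 0.960). Ptgds did so too, at 2.45 times in neutrophil-like cells and 0.504 times in macrophage-like cells, and neither passed the fold without its highest cell. The log2 ratio of Alox5 in macrophage-like cells ran from -0.73 to 0.23 over the alternatives. These differences between classes were not tested, because each library is 1 sample.

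The barcodes left out as low-quality or doublets held Ptgds at 1150 CPM in the implanted and 207 CPM in the non-implanted library (1292 and 237 UMIs). The cells kept held 398 and 13.2 CPM, and the highest kept cell held 77.8% of the implanted UMIs kept. With the doublets put back, the cells held 7360 and 283 UMIs in place of 7352 and 269. Nearly all of the Ptgds left out thus lay in barcodes that failed the cell filter.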

How the results depend on the processing

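Over the alternatives run, 193 of 236 counts stayed within 1.5 times the value reported, and 1162 of 1400 levels of single members stayed within their counting interval. Of 567 log2 ratios between libraries, 50 had the other sign than the value reported, over 19 of 33 ratios: 48 were of ratios that had not passed the fold, and 2 of ratios that had. The ratio of Hpgds in macrophage-like cells, for example, ran from -0.39 to 0.94 and that of Ltc4s from -0.78 to 0.69 (log2). Without the cell filter, 2 members were highest in neutrophil-like cells in both libraries in place of 4, and no other alternative moved such a count by over 1.5 times.

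With a pseudocount of 20 CPM, 0 members and 0 pathway genes were higher in implanted neutrophil-like cells, 0 pathway genes were lower in monocyte-like cells, and in macrophage-like cells 1 member was higher and 1 lower, and 2 pathway genes higher and 3 lower. With a pseudocount of 1 CPM, 1 pathway gene was higher in precursor-like cells. With no minimum of UMIs, 2 pathway genes were higher in neutrophil-like cells, and 1 member and 2 pathway genes lower in monocyte-like cells. With at least 50 UMIs, 0 pathway genes were lower in monocyte-like cells, and 1 member and 2 pathway genes were higher in macrophage-like cells. With a fold of 2, 0 members and 0 pathway genes were higher in neutrophil-like cells, 1 member higher and 0 pathway genes lower in monocyte-like cells, and 1 member higher, 0 members lower, 2 pathway genes higher and 2 lower in macrophage-like cells.

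Members higher in neutrophil-like cells (1 as reported) were 0 without the cell filter, with 2 times the doublets removed, at resolution 0.5, with 3000 variable genes and 50 components and without the cell with the most UMIs, and 2 with each library clustered separately. Members higher in monocyte-like cells (2) were 1 with no doublets removed and with cells thinned to 1000 UMIs. Members higher in macrophage-like cells (2) were 1 at resolution 0.5 and where cells had equal weight, and 0 when thinned to 1000 UMIs or without cluster 19. Members lower there (2) were 4 at resolution 2, 0 at resolution 0.5 or without cluster 19, and 1 without the cell filter, with 3000 variable genes and 50 components, with separate clustering, without the top cell and without cluster 12.

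Of the ratios past the fold, the macrophage-like log2 ratio of Ptgds changed sign with 3000 variable genes and 50 components (4.62) and that of Ptgs1 with separate clustering (0.25). The cause was not tested. The log2 ratio of Pla2g7 in macrophage-like cells ran from 0.03 to 1.23 and that of Ptges from 0.45 to 1.18 where at least 20 UMIs remained, and was -0.08 without cluster 19, with 8 against 11 UMIs. In monocyte-like cells that of Alox5 ran from 0.11 (at resolution 0.5) to 1.53 and that of Ptgs2 from 0.51 to 1.05. No paired analysis was possible because each group is 1 library with no replicate number, and no replicate could be left out. Counting limits the sparse members most: Ltc4s had 120 and 121 UMIs in the 2 libraries.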

Other observations

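Cluster 17 (41 implanted and 43 non-implanted cells) stayed unnamed. Its leading genes included Adgre4, Pparg, Cd36, Hpgd and Ace. It held Lta4h at 270 (95% interval 218 to 330) and 370 (313 to 435) CPM, above the level of neutrophil-like, monocyte-like and macrophage-like cells, and Alox5 at 153 and 174 CPM. The 12 neutrophil markers summed to 168926 and 192442 CPM there and the 11 precursor markers to 61116 and 79726 CPM.

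The clusters led by basophil genes held 24 implanted and 15 non-implanted cells. Their 11 basophil or mast cell markers summed to 14699 CPM in the implanted but 370 CPM in the non-implanted cells, so the name holds for the former only and the libraries are not compared there. The 24 implanted cells held Alox5 at 320 (227 to 437) CPM and Ptgs2 at 328 (234 to 446) CPM, with the neutrophil markers at 61155 CPM. That Alox5 level stood above the 195 CPM of implanted neutrophil-like cells. The 24 cells had 3 UMIs of Hpgds, or 24.6 CPM, and 0 of Ltc4s. In so few cells, 0 UMIs do not show that Ltc4s is absent.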
